A study of Mus musculus with 4 samples.

Results

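The genes described here write, copy and remove DNA methylation: the DNA methyltransferase genes Dnmt1, Dnmt3a, Dnmt3b and Dnmt3l, the Tet dioxygenase genes Tet1, Tet2 and Tet3, the maintenance factor gene Uhrf1 and the glycosylase gene Tdg. They were taken by symbol from the array annotation, and 8 of the 9 had a probe set that carried their symbol alone, 1 probe set each. The 2 probe sets that name Tdg also name its pseudogenes, so no Tdg value is given. The 8 genes are among 22180 with a value in the series, and all 8 are among the 18310 that reached a log2 signal of 6 on at least 1 array.

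RNA came from P19, a mouse embryonal carcinoma line that differentiates in retinoic acid, and each condition was measured on 1 array. The Ctcfl line is a single P19 clone with the stable integrates pBI-EGFP-FLAG-mCtcfl and pTA-N, a Tet-Off system in which doxycycline represses Ctcfl, a testis paralog of the insulator protein Ctcf. Its cells were harvested 2 days after doxycycline at 2 µg/ml was withdrawn, either after 4 days in 10 µM retinoic acid or undifferentiated in ethanol vehicle. Wild-type P19 cells without the integrates were measured in the same pair of states, and the labels conflict on whether they received doxycycline. A difference between the lines therefore holds Ctcfl, the integrates, clonal origin and possibly doxycycline together, and these cannot be told apart. Ctcfl itself, read by a probe set that may detect the transgene, the chromosomal gene or both, had log2 signals of 9.56 in retinoic acid and 10.41 undifferentiated in the Ctcfl line, against 7.13 and 7.86 in wild-type cells. The median signal of an array was log2 6.95 to 6.96.

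DNA methylation in mammals sits mostly on cytosines of CpG dinucleotides. Dnmt3a and Dnmt3b place it de novo, with Dnmt3l as a cofactor that has no catalytic activity of its own. Dnmt1 copies it to the new strand after replication, guided by Uhrf1, which binds hemimethylated DNA. Tet enzymes oxidise 5-methylcytosine to 5-hydroxymethylcytosine and further forms, and Tdg excises the most oxidised of these before repair. Cells of the early epiblast are known for high levels of Dnmt3b, and pluripotent cells for Tet1 and Tet2.

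The promoters of 3 genes are shown because their genes, as described below, were those that passed the test for retinoic acid, and because the CpG dinucleotides in them, printed in capitals, are the substrate of the enzymes. Each is the 250 bases 5′ of a transcription start in RefSeq on GRCm38.p6, 5′ to 3′ on the strand of the gene. Dnmt3b has 1 start in that table, 3′ of chr2:153649199-153649448 (plus strand). Tet2 has 1 start, 3′ of chr3:133544391-133544640 (minus strand). This Tet2 stretch lies inside the annotated span of the gene, chr3:133463677-133545136. Dnmt3l has 3 starts, of which the one nearest the 5′ end of the gene is shown, chr10:78042037-78042286 (plus strand).
Dnmt3b: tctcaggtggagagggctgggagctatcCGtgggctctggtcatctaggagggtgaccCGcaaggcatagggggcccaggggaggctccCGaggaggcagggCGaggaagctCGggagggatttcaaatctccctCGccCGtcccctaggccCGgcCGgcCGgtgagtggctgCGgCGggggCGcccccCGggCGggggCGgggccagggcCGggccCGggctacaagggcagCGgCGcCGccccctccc
Tet2: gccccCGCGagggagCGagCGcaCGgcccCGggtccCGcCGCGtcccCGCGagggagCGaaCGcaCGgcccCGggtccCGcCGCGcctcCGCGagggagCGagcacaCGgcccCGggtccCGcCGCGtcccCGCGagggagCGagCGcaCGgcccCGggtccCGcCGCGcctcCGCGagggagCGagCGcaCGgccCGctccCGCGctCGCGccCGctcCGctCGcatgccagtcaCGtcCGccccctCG
Dnmt3l: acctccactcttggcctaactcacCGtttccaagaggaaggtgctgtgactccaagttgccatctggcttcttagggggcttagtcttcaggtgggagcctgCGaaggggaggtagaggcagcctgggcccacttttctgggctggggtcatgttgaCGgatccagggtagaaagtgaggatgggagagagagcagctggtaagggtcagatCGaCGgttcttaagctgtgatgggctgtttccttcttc
The 3 differ widely in CpG content. Tet2 holds 51 CpG dinucleotides in these 250 bases, more than 99.9% of the 32851 promoters of the same length. Dnmt3b holds 21, more than 83.7% of promoters, and a median promoter holds 6. The Dnmt3l stretch holds 5, and its other starts hold 4 and 3. Letters of 3 motifs were searched on both strands, each on its own, so that overlapping matches count for each motif. GGGCGG, the GC box, occurs 3 times in the Dnmt3b stretch, 1 time in that of Tet2 and 0 times in the Dnmt3l stretch shown, and 32.7% of all promoters hold it. In the other Dnmt3l starts, with 4 and 3 CpG dinucleotides, it occurs 2 and 0 times. Which Dnmt3l start P19 cells use was not tested. AGGTCA, a core site of retinoid receptors, and ATGCAAAT, the octamer, have 0 matches in the 3 stretches, and 14% of all promoters hold AGGTCA and 1.6% ATGCAAAT. A match, or its lack, describes these letters only.

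The first question is what 4 days of retinoic acid did to these genes in each line. The de novo enzyme gene Dnmt3b and the cofactor gene Dnmt3l fell, Tet2 rose, and the maintenance gene Dnmt1 had nearly equal signals on the 4 arrays. In a limma fit over all 18310 genes, which had additive terms for retinoic acid and for the line, 1 of the 8 genes rose with retinoic acid (Tet2), 2 fell (Dnmt3b and Dnmt3l) and 5 did not pass at an adjusted p of 0.05. Over all genes that fit called 4.21% as rising and 2.44% as falling. At an unadjusted p of 0.05 limma had 2 of the 8 higher and 4 lower, where 12.5% and 11% of all genes were. Its error joins the unequal response of the lines in a gene, with 1 residual degree of freedom, to a prior pooled over all fitted genes. That prior has 5.49 degrees of freedom, so the SEs and p-values rest mostly on it. They come from single arrays and do not measure spread between replicate cultures.

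**Figure D1:**
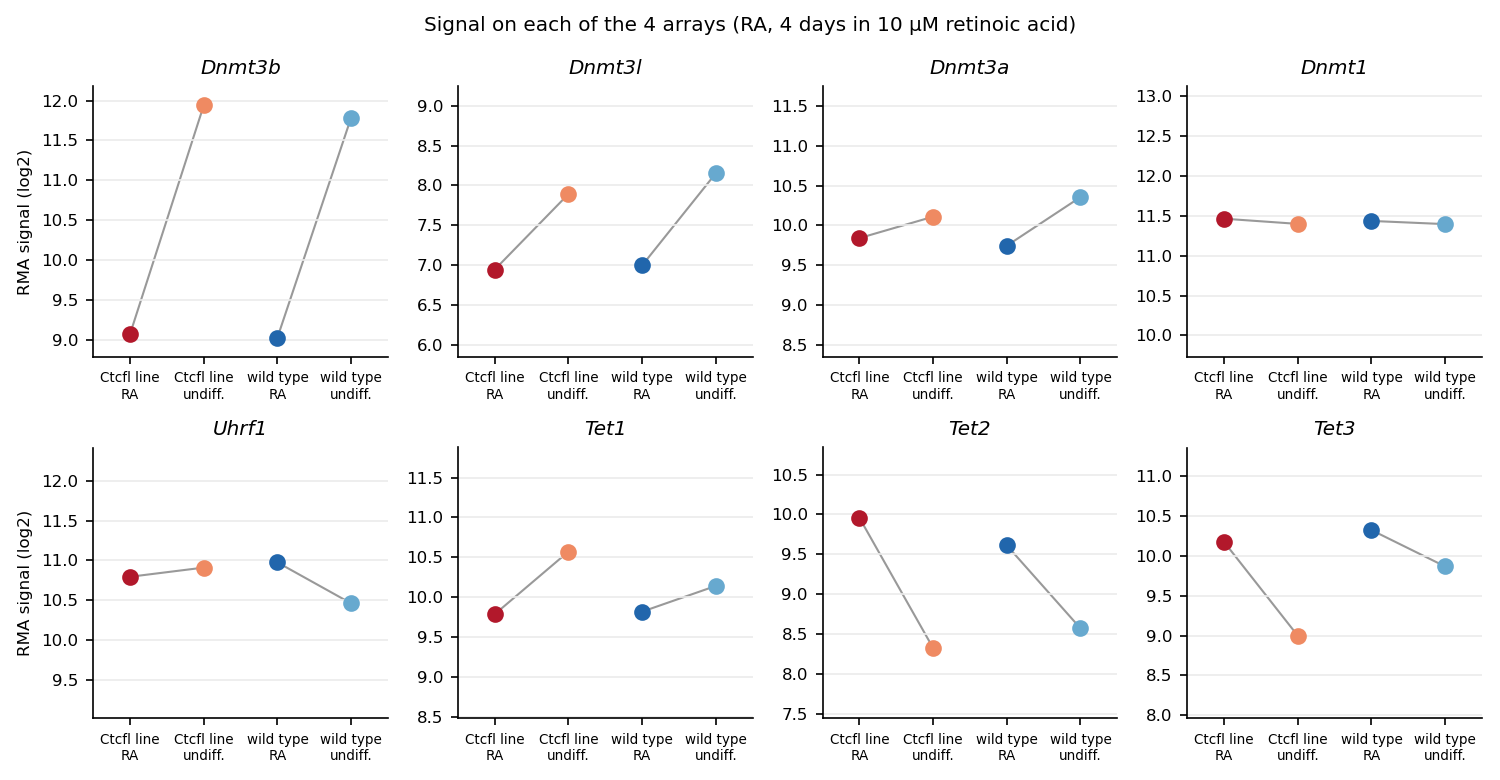
RMA signal (log2, vertical axis) of each gene on the 4 arrays, with 1 point per array and lines joining the states of a line; every panel spans the same number of log2 units around its own gene, and levels are not comparable between genes. Dnmt3b sits near log2 9 in retinoic acid and near 12 undifferentiated in both lines, and Dnmt1 stays within 0.068 log2 units.

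Dnmt3b, the de novo methyltransferase of the epiblast, had log2 signals of 9.07 in retinoic acid and 11.94 undifferentiated in the Ctcfl line, and of 9.03 and 11.79 in wild-type cells. Both retinoic acid arrays thus lay far below both undifferentiated arrays. For this gene and those below, such an order of 2 arrays against 2 is a description, and its share over all genes was not counted. The log2 difference was -2.87 in the Ctcfl line and -2.76 in wild-type cells, which ranked 15 and 20 from the lowest of 18310 genes. With an effect of log2 -2.82 ± 0.15 (SE), Dnmt3b fell 7.04-fold over the lines (limma adjusted p = 0.000529, lower in 2 of 2 lines).

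Dnmt3l, the cofactor without catalytic activity, had log2 signals of 6.94 in retinoic acid and 7.89 undifferentiated in the Ctcfl line, and of 6.995 and 8.15 in wild-type cells. Its retinoic acid arrays were also the lower pair. With an effect of log2 -1.05 ± 0.15 (SE), Dnmt3l fell 2.07-fold (limma adjusted p = 0.0133, lower in 2 of 2 lines). The retinoic acid signals of this gene are within 1 log2 unit of the filter at log2 6, so the fold is not exact.

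Dnmt3a, the other de novo enzyme, had log2 signals of 9.84 in retinoic acid and 10.11 undifferentiated in the Ctcfl line, and of 9.75 and 10.36 in wild-type cells. The retinoic acid arrays were again the lower pair, by smaller steps. The limma effect was log2 -0.44 ± 0.16 (SE), with an adjusted p of 0.168, and did not pass. Each gene has 1 probe set, so the long and short forms of Dnmt3a and the splice forms of Dnmt3b could not be told apart.

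For Dnmt1, the maintenance methyltransferase, the log2 signals were 11.47 in retinoic acid and 11.40 undifferentiated in the Ctcfl line, and 11.44 and 11.40 in wild-type cells. The whole range was 0.068 log2 units, and the limma effect was log2 0.05 ± 0.15 (SE, adjusted p = 0.861). Uhrf1, its partner at replicated DNA, had log2 signals of 10.80 in retinoic acid and 10.91 undifferentiated in the Ctcfl line, and of 10.98 and 10.46 in wild-type cells. The undifferentiated wild-type array was the low one. Uhrf1 differed by log2 -0.12 with retinoic acid in the Ctcfl line and by 0.51 in wild-type cells, and its limma effect did not pass (log2 0.20 ± 0.19, SE, adjusted p = 0.565).

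Among the dioxygenases, Tet2 had log2 signals of 9.96 in retinoic acid and 8.32 undifferentiated in the Ctcfl line, and of 9.61 and 8.57 in wild-type cells. Both retinoic acid arrays were higher than both undifferentiated ones. The increase over the lines was 2.53-fold (log2 1.34 ± 0.19, SE, limma adjusted p = 0.0119, higher in 2 of 2 lines). Its log2 difference was 1.63 in the Ctcfl line and 1.04 in wild-type cells, and 1.42% and 4.77% of all genes had differences at least as large in either direction in the same comparisons.

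Tet3, which oxidises the paternal genome in the zygote and is known from neural tissue, had log2 signals of 10.17 in retinoic acid and 8.997 undifferentiated in the Ctcfl line, and of 10.32 and 9.87 in wild-type cells. The low array was that of undifferentiated Ctcfl-line cells. Its limma effect of log2 0.82 ± 0.20 (SE) had an adjusted p of 0.0696 and did not pass, with a log2 difference of 1.18 in the Ctcfl line and 0.46 in wild-type cells.

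Tet1, the dioxygenase best known from embryonic stem cells, had log2 signals of 9.78 in retinoic acid and 10.57 undifferentiated in the Ctcfl line, and of 9.82 and 10.14 in wild-type cells. Both retinoic acid arrays were lower, with log2 differences of -0.79 in the Ctcfl line and -0.32 in wild-type cells. The limma effect of log2 -0.55 ± 0.17 (SE) did not pass (adjusted p = 0.12). The signs of the Tet genes thus differed, with Tet1 below 0 and Tet2 and Tet3 above it in both lines, of which the Tet2 call alone passed; differences between the Tet genes were not tested.

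**Figure D2:**
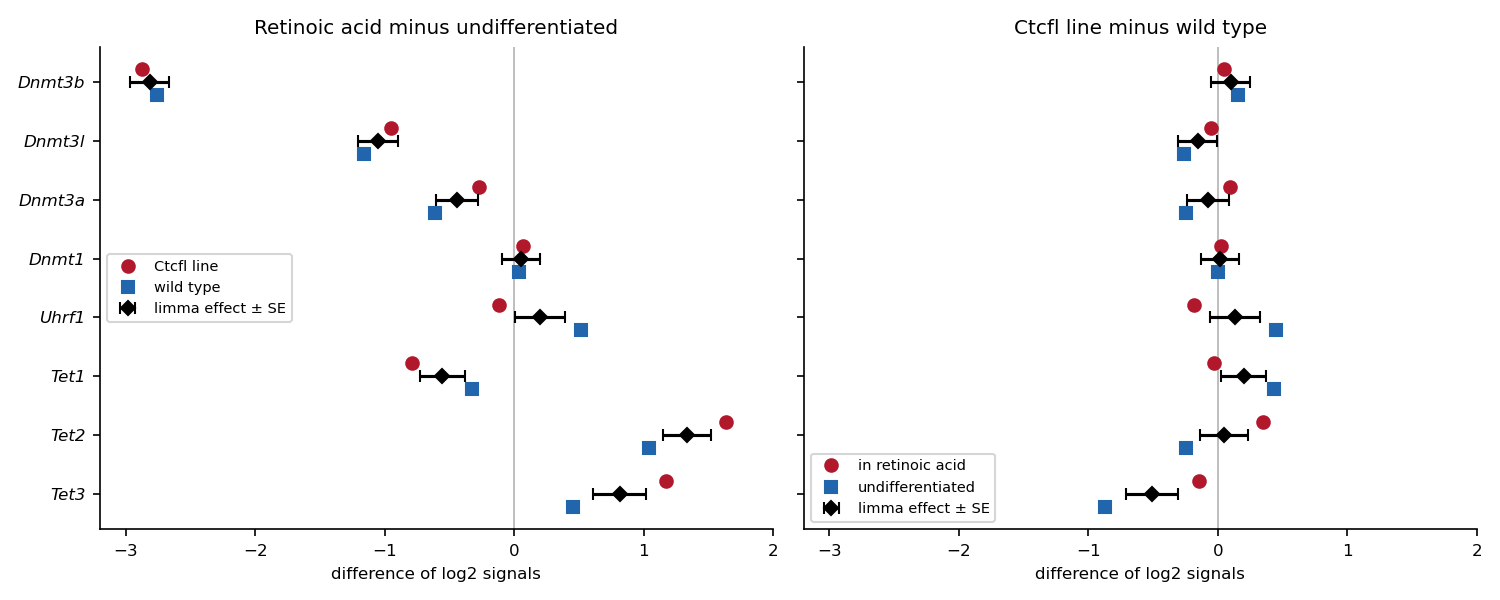
Differences of log2 signals for each gene, retinoic acid minus undifferentiated on the left panel and Ctcfl line minus wild type on the right panel. Circles and squares are differences between 2 single arrays and diamonds the limma effect with its SE; Dnmt3b lies at -2.82 and Tet2 at 1.34 on the left, and the effects on the right lie between -0.51 and 0.20.

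Counted without a test, 2 of the 8 genes were at least 2-fold higher with retinoic acid in the Ctcfl line (Tet2 and Tet3) and 1 was at least 2-fold lower (Dnmt3b); 3.21% and 1.5% of all genes were that far apart. In wild-type cells 1 was at least 2-fold higher (Tet2) and 2 were at least 2-fold lower (Dnmt3b and Dnmt3l), against 2.58% and 2.62% of all genes. Sizes of the 8 differences had a median of log2 0.87 in the Ctcfl line and 0.56 in wild-type cells, where the medians over all genes were 0.25 and 0.22. Spread between probe sets was taken from 874 genes with several probe sets. Their differences had a within-gene SD of log2 0.331 in the Ctcfl line and 0.303 in wild-type cells. This SD leaves out variation between arrays or cultures that the probe sets of a gene share. The Dnmt3b, Dnmt3l, Tet1, Tet2 and Tet3 differences were larger than 1 such SD in both lines, and those of Dnmt1 were smaller in both.

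**Figure D3:**
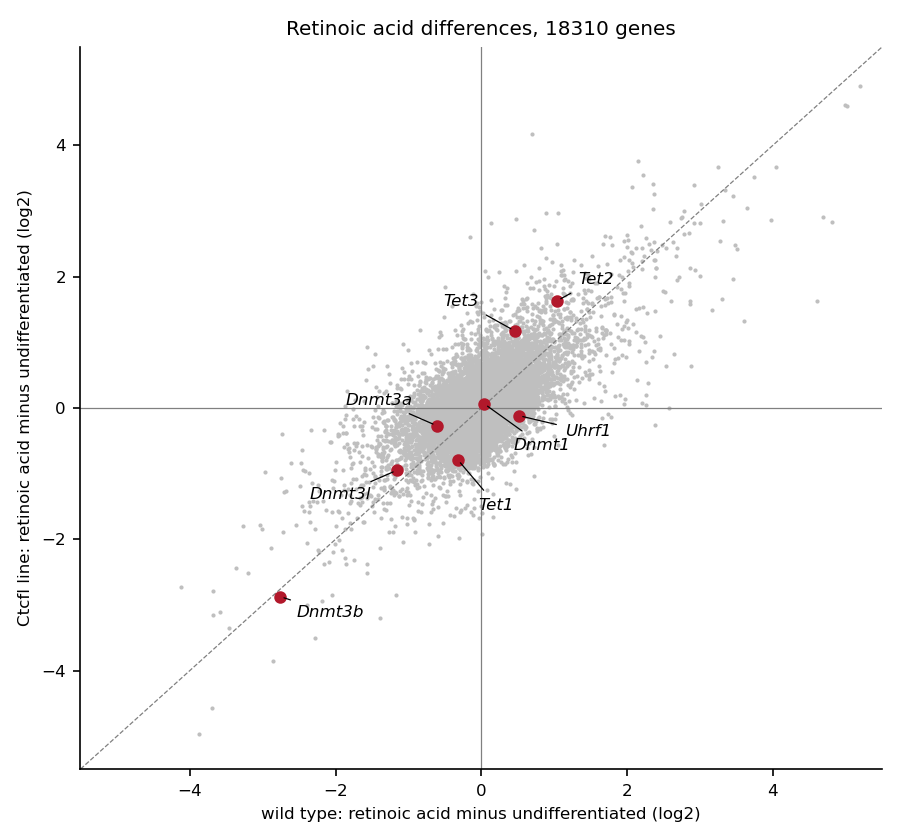
Retinoic acid differences (log2) of 18310 genes, with the Ctcfl line on the vertical and wild-type cells on the horizontal axis; red points are the 8 genes and the dashed line marks equal differences. Dnmt3b is near the lower left end at -2.76 and -2.87, Tet2 is at the upper right, and Uhrf1 is the gene of the 8 with opposite signs in the lines.

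The second question is whether these genes differed between the Ctcfl line and wild-type cells. In limma 0 of the 8 rose and 0 fell with the line, with adjusted p from 0.493 to 0.983; the fit called 0.0273% of all genes as rising and 0.0164% as falling. At an unadjusted p of 0.05 limma had 0 of the 8 higher and 1, Tet3, lower, where 5.14% and 4.66% of all genes were. The Tet3 line effect was log2 -0.51 ± 0.20 (SE), and the other 7 effects lay between log2 -0.16 and 0.20. Effects of the size of these errors cannot be seen with 4 arrays.

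In retinoic acid, 0 of the 8 genes were at least 2-fold apart in either direction, where 0.83% of all genes were that much higher and 0.399% that much lower in the Ctcfl line. The log2 differences between the lines in that state ran from -0.18 for Uhrf1 to 0.35 for Tet2. Their sizes had a median of 0.074, against 0.166 over all genes, and the within-gene SD between probe sets was 0.226. For Dnmt3b the lines differed by log2 0.04 and for Tet1 by -0.03.

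In undifferentiated cells the sizes had a median of log2 0.254, against 0.184 over all genes. Again 0 of the 8 were at least 2-fold apart, with 0.726% of all genes that much higher and 1.09% that much lower. Tet3 was 1.83-fold lower in the Ctcfl line (log2 -0.87), a size that 2.88% of all genes reached, and larger than the within-gene SD of 0.262 between probe sets. Uhrf1 and Tet1 were higher by log2 0.45 and 0.43, and Dnmt3a, Dnmt3l and Tet2 were lower by log2 0.25, 0.26 and 0.25 in size. Dnmt3b differed by log2 0.15 and Dnmt1 by 0.0028.

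The difference of the responses, that is the retinoic acid difference in the Ctcfl line minus that in wild-type cells, was highest for Tet3 at log2 0.72 and Tet2 at 0.59. It was lowest for Uhrf1 at -0.63 and Tet1 at -0.46, and lay at -0.11 for Dnmt3b, 0.21 for Dnmt3l, 0.34 for Dnmt3a and 0.03 for Dnmt1. None of these reached 2-fold, where 1.9% of all genes were that much higher and 0.754% that much lower, and single arrays allow no test of them. The SD over all genes was 0.411. For Dnmt3a, Dnmt3b, Dnmt3l, Tet1, Tet3 and Uhrf1 the undifferentiated pair of arrays differed more than the retinoic acid pair. For Dnmt1 and Tet2 the retinoic acid pair differed more.

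For each of the 8 genes whose 4 signals spanned at least 1 log2 unit, the 3 genes of nearest pattern were found as those with the smallest root mean square difference of centred log2 signals over the 4 arrays. The 4 points allow many such matches, and they are a description. For Dnmt3b they were Pdzd4, a PDZ domain gene, the ephrin receptor gene Epha1 and Fst, which encodes the activin antagonist follistatin, at distances of 0.088, 0.138 and 0.206. Pdzd4 had log2 differences with retinoic acid of -2.87 in the Ctcfl line and -2.75 in wild-type cells. For Dnmt3l they were Rspo3, a secreted enhancer of Wnt signals, the metal transporter gene Slc39a8 and the junctophilin gene Jph1, at 0.018, 0.034 and 0.049. For Tet2 they were Fam181b, the transcriptional coregulator gene Zmiz1 and the semaphorin gene Sema6d, at 0.043, 0.053 and 0.055. For Tet3 they were Alg8, an enzyme of N-glycan assembly, Glt8d1 and the transcription factor gene Nfatc4, at 0.047, 0.047 and 0.048.

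Other genes of DNA methylation were described from lists by role. Beside these and the later lists, limma called 4.21% of all genes as rising and 2.44% as falling with retinoic acid. Of 8 measured readers of methylated CpG, 1 rose with retinoic acid and 0 fell: Mbd1, a methyl-CpG binding protein, rose 1.64-fold (adjusted p = 0.0423 in limma). The median retinoic acid effect of these readers was log2 0.06, against -0.05 over all genes. Of 20 recruiters and partners of the methyltransferases, 0 rose and 0 fell in limma. At an unadjusted p of 0.05 limma had 1 higher and 2 lower, where 12.5% and 11% of all genes were. Hells, the remodeller that Dnmt-dependent methylation of repeats needs, had an effect of log2 -0.64 and did not pass (adjusted p = 0.0743). Of 13 genes of base excision repair and deamination, 1 rose and 0 fell. Smug1, a glycosylase of uracil and 5-hydroxymethyluracil, rose 1.91-fold (adjusted p = 0.0249 in limma, higher in 2 of 2 lines).

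Supply of the methyl donor and of the Tet cosubstrate gave a few calls. Of 15 genes of the methyl donor cycle, 0 rose and 2 fell with retinoic acid, and 8 were lower at an unadjusted p of 0.05 in limma, as 11% of all genes were; their median effect was log2 -0.47. Mthfd1 and Mthfd1l, folate enzymes of the cytosol and mitochondria, fell 1.84-fold and 1.78-fold (adjusted p = 0.0216 and 0.0265 in limma). Mthfd2, another mitochondrial folate enzyme, had log2 differences of -0.52 in the Ctcfl line and -2.08 in wild-type cells and did not pass (adjusted p = 0.0789). Of 14 genes of Tet partners and 2-oxoglutarate enzymes, 1 rose and 2 fell. Idh3a, a subunit of the mitochondrial isocitrate dehydrogenase that makes 2-oxoglutarate, fell 2.17-fold, and Got1, a transaminase that uses it, fell 2.03-fold (adjusted p = 0.0138 and 0.0141 in limma). Idh2, the mitochondrial enzyme that uses NADP, rose 1.67-fold (adjusted p = 0.039 in limma). None of these 5 lists had a gene called with the line: 0 rose and 0 fell in limma in each. Between 0 and 2 of a list passed an unadjusted p of 0.05 in limma, where 5.14% of all genes were higher and 4.66% lower.

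**Figure D4:**
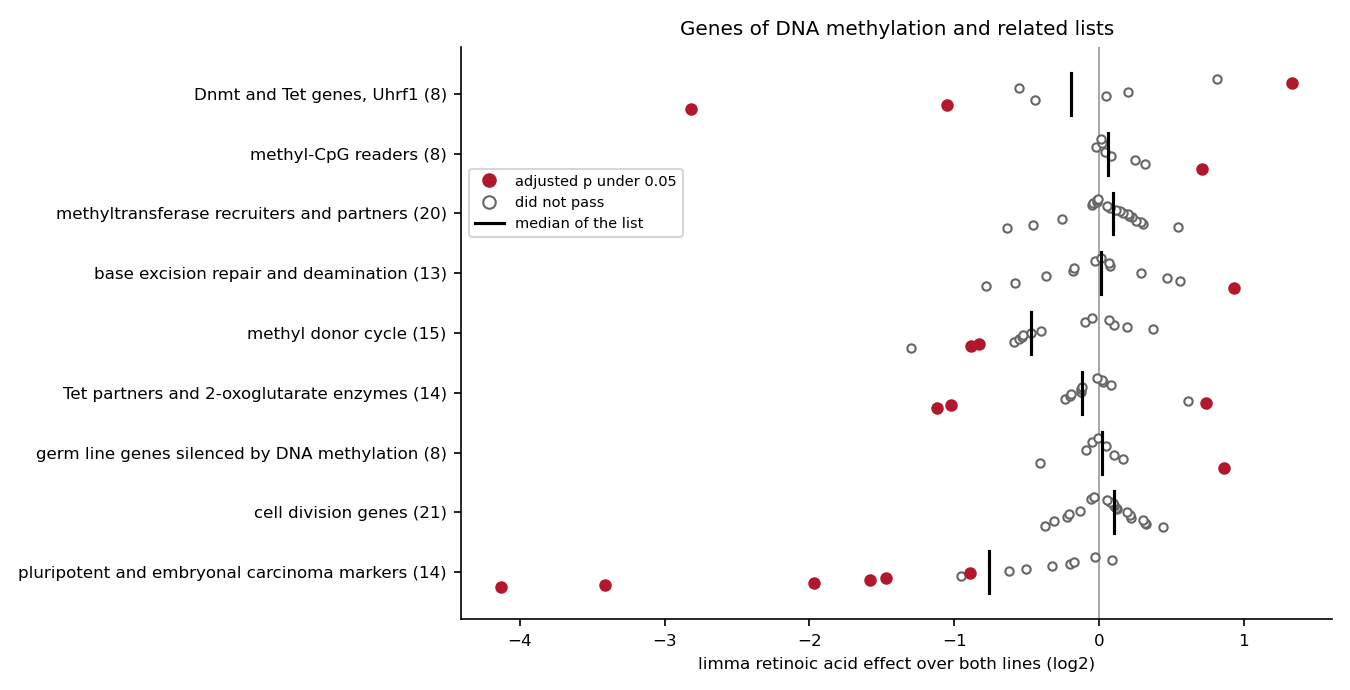
Limma effect of retinoic acid over both lines (log2, horizontal axis) for the 8 genes and 8 related lists; each point is a gene, filled where the adjusted p was under 0.05, bars are medians and the number of genes is in brackets. The 8 genes run from -2.82 to 1.34, and the methyl donor cycle has a median of -0.47.

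Germ line genes whose promoters are known to be kept silent by DNA methylation were also described. Of 17 with a value, 9 stayed below log2 6 on all 4 arrays, as 17.4% of all genes with a value did, among them Dazl and Ddx4, RNA-binding proteins of germ cells, and Mael, a piRNA factor. Of the 8 others 1 rose and 0 fell with retinoic acid: Tdrkh, another piRNA factor, rose 1.82-fold (adjusted p = 0.0224 in limma). With the line 0 rose and 0 fell in limma, also at an unadjusted p of 0.05. The mean log2 signal of the 17 was 5.70 in retinoic acid and 5.70 undifferentiated in the Ctcfl line, and 5.78 and 5.78 in wild-type cells.

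Markers of pluripotent cells and of 3 lineages were set beside these genes. Over all genes limma called 4.21% as rising and 2.44% as falling with retinoic acid. Of 14 measured markers of pluripotent and embryonal carcinoma cells, 0 rose and 6 fell with retinoic acid; Pou5f1, the core pluripotency factor, fell 2.99-fold and Utf1, a chromatin protein of such cells, fell 10.6-fold (adjusted p = 0.00743 and 0.000529 in limma). Linear signals summed over the 15 markers with a value came to 11161 in retinoic acid and 24436 undifferentiated in the Ctcfl line, and to 11035 and 21269 in wild-type cells. Dppa5a, 1 of the 15, was below log2 6 on all 4 arrays. Of 10 endoderm markers limma called 2 higher and 0 lower, with Gata6, which encodes a zinc finger factor of extraembryonic endoderm, 8.47-fold higher (adjusted p = 0.000608). Their summed signals were 3719 in retinoic acid and 2309 undifferentiated in the Ctcfl line, and 5883 and 2253 in wild-type cells. Without Gata6 these sums were 2634 and 2158 in the Ctcfl line, and 3460 and 2009 in wild-type cells. Of 9 neural markers limma called 4 higher and 1 lower. Sox1, of the neural plate, was among the 4, at 3.41-fold (adjusted p = 0.0111), and the gene lower was Nefl, of neurofilaments, by 4.03-fold (adjusted p = 0.0266). The neural sums were 3833 and 3261 in the Ctcfl line, and 3313 and 2381 in wild-type cells. Of 9 mesoderm and smooth muscle markers, 1 was called higher (Meox1, a homeobox gene of the somites) and 0 lower, with sums of 2803 and 2612 in the Ctcfl line, and 3312 and 2922 in wild-type cells. The part of these marker values in the Dnmt and Tet differences was not tested, and in bulk RNA fewer cells of a type and less RNA per cell cannot be told apart.

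Because Dnmt1 and Uhrf1 are known to follow S phase, cell division genes were set beside them. Of 21 measured, 0 rose and 0 fell with retinoic acid in limma. At an unadjusted p of 0.05 limma had 1 higher and 1 lower, where 12.5% and 11% of all genes were. Their median log2 difference with retinoic acid was 0.02 in the Ctcfl line and 0.12 in wild-type cells. Mki67, a marker of proliferating cells, differed by log2 0.46 in the Ctcfl line and 0.43 in wild-type cells, and Mcm3, a subunit of the replicative helicase, by -0.45 and -0.28. Cdc6, which licenses replication origins, had 0.02 and 0.62, and Cdk1, the mitotic kinase, 0.16 and 0.49. Uhrf1 had -0.12 and 0.51 in the same comparisons, and the part of cell division in its values was not tested.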

How the data were processed

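RNA of 4 P19 conditions was hybridised to Affymetrix arrays, 1 array each. Per the labels, the authors computed the deposited log2 signals with RMA (background correction, normalization between arrays, probe set summary) in Affymetrix Expression Console; Transcriptome Analysis Console is also named in the submitters' processing notes. Versions and genome build were not given in the sources used here, and nothing was normalized further. Of 41345 probe sets, 23521 had 1 gene symbol, 1814 several and 16010 none in the annotation used. Where a gene had several single-symbol probe sets, the one with the highest mean stood for it (22180 genes), and 18310 with a signal of at least log2 6 on 1 array or more were fitted in limma 3.58.1 (R 4.3.3; lmFit and eBayes, prior of 5.49 degrees of freedom), two-sided, with Benjamini-Hochberg adjustment over all of them. With simulated data of 18310 genes for the retinoic acid effect, 65% of 2-fold and 100% of 4-fold changes were recovered and 10.8% of the 185 calls were unchanged genes, under that model's own assumptions.

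Differences between single arrays carry no test. Precision is limited by the number of arrays. The 9 genes, the lists and the tests were chosen with earlier results of these data known. Named genes are the listed enzymes, Ctcfl, list genes that limma called or that are among the 4 largest retinoic acid effects of their list, and the genes of nearest pattern; Dppa5a, Dazl, Ddx4 and Mael were named after their values were seen. List symbols were matched through gene symbols and RefSeq synonyms. Alternatives were 2 other filters, quantile normalization, the mean of probe sets, a variance prior that follows expression, a fit on all probe sets and a 3-fold threshold.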

Additional observations from a re-analysis of the deposited data

Results flagged for a closer look

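Differences of 4 genes had opposite signs in the paired comparisons, each from 1 array against 1, and none of these contrasts was tested. The share of all genes with such opposite signs was not counted, so the flag is not particular to these genes. Uhrf1 differed with retinoic acid by log2 -0.12 in the Ctcfl line and 0.51 in wild-type cells. Between the lines, Uhrf1 differed by log2 -0.18 in retinoic acid and 0.45 in undifferentiated cells. Tet1 differed between the lines by log2 -0.032 in retinoic acid and 0.43 undifferentiated. Tet2 differed by log2 0.35 in retinoic acid and -0.25 undifferentiated. Dnmt3a differed by log2 0.10 in retinoic acid and -0.25 undifferentiated. The within-gene SD between probe sets was 0.226 for line differences in retinoic acid and 0.262 in undifferentiated cells, and at least 1 side of each of the 4 contrasts between the lines is smaller than that.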

How the results depend on the processing

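Each of the 8 genes has 1 probe set, so of the limma settings only quantile normalization could change its log2 effect. Under the rest its direction was fixed in advance. With quantile normalization the 8 genes kept their direction. They also kept their side of the threshold under all 6 alternatives of the limma fit, for retinoic acid and for the line. Over these, the adjusted p of the retinoic acid effect ran from 0.000122 to 0.000843 for Dnmt3b, from 0.00635 to 0.0179 for Dnmt3l and from 0.00677 to 0.0167 for Tet2, and from 0.0537 to 0.0872 for Tet3, which did not pass. Of the counts at least 2-fold apart, quantile normalization left 0 in place of 1 higher with retinoic acid in wild-type cells, where Tet2 had a log2 difference of 1.04, near the limit. A 3-fold threshold left 1 higher in the Ctcfl line, and in wild-type cells 0 higher and 1 lower. Over all genes, calls with the line were 14 rising and 9 falling with quantile normalization and 9 rising and 6 falling with the variance prior that follows expression, in place of 5 and 3; the cause was not tested. No paired analysis was possible because each condition had 1 array, and for the same reason no replicate could be left out. The Dnmt3l signals in retinoic acid are within 1 log2 unit of the filter at log2 6, so the Dnmt3l fold is not exact. The same limit holds for Smug1 and Sox1, at log2 6.91 and 6.90 undifferentiated in the Ctcfl line.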
